A study of Mus musculus with 4 samples.

Results

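The laminin and integrin genes of the mouse mammary gland were described across the cell lineages of WT and LATS1/2 KO glands, in single-cell RNA counts. The members were all gene symbols of the count table with the name of a laminin chain (Lama, Lamb or Lamc and a number) or of an integrin subunit (Itga or Itgb and a number, or Itga and one of the letters v, l, m, x, d and e). They were 37 of 28626 symbols, 11 laminin chains and 26 integrin subunits, and they filled 38 of 28693 rows because Itgam stands under the overlapping identifiers ENSMUSG00000030786 and ENSMUSG00000108596 on chromosome 7, so that its split between these rows is uncertain. Counts of members below are counts of rows.

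Laminins are secreted as trimers of an alpha, a beta and a gamma chain and are the proteins that lay down the basement membrane, the sheet on which the mammary epithelium and its vessels rest. Their names give the chains, so that laminin-511 is made of the products of Lama5, Lamb1 and Lamc1. Integrins are receptors of an alpha and a beta subunit that bind laminins, collagens or fibronectin outside the cell and the cytoskeleton inside it. Integrin alpha 6 beta 4 binds laminin in hemidesmosomes, the rivets of basal epithelial cells, while alpha 3 beta 1 and alpha 6 beta 1 bind laminin in focal adhesions. LATS1 and LATS2 are the kinases of the Hippo pathway that hold the coactivators YAP and TAZ back from the TEAD transcription factors.

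Each of the 4 libraries came from 1 adult nulliparous mouse. All mice were Lats1f/f;Lats2f/f with a R26-lsl-EYFP reporter and all received 2 mg tamoxifen on 5 days, with collection 7 days after the last dose. The 2 LATS1/2 KO mice also carried Krt8-CreERT2, a tamoxifen-dependent recombinase under the promoter of a luminal keratin, and the 2 WT mice had no Cre, so WT here means undeleted floxed alleles. The reporter was homozygous in LATS1/2 KO replicate 2 and heterozygous in the other mice. Gland pairs 3 to 5 of a mouse were dissociated and sorted for live cells without selection of a cell type, and 10x Genomics 3' v3 libraries were made, in which a unique molecular identifier (UMI) counts each captured RNA near its 3' end.

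The libraries held 4914 and 3515 cells in WT replicates 1 and 2 and 4499 and 5272 in LATS1/2 KO replicates 1 and 2, with 38792520 to 46810771 UMIs per library and a median of 5962.5 to 10141.0 UMIs per cell; 51 cell barcodes were found in more than 1 library. Cells were assigned to lineages by marker genes that include no member, and the counts were summed per lineage and library. Luminal ER- cells numbered 2921 and 2120 in WT and 2432 and 2501 in LATS1/2 KO, luminal ER+ cells 1098 and 791 against 437 and 123, and basal cells 185 and 158 against 339 and 438. There were 54 and 23 fibroblasts in WT against 280 and 846, 38 and 34 endothelial cells against 221 and 214, and 170 and 70 lymphocytes against 20 and 67. The class named luminal ER- holds all luminal cells below the ER+ marker limit. In WT 99.08 and 99.48% of these cells reached the limit of the luminal ER- markers, but in LATS1/2 KO only 56.09 and 61.18% did, so for the other mutant cells the label rests on the absence of ER+ markers. Every pair of values below gives replicate 1 and then replicate 2. In comparisons of LATS1/2 KO with WT, p-values measure the spread between 2 mice per group. The mouse was a block in tests between WT lineages, of interactions, and between mutant cells with and without EYFP RNA. Their p-values measure the spread left within mice and not that between mice.

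The targeted genes were read first. The level of Lats1 in the luminal ER- class was 29.1 and 28.8 in WT and 12.3 and 14.4 in LATS1/2 KO, in CPM (UMIs per 1000000 UMIs of the sum), with a log2 fold change of -1.12 ± 0.11 (SE), and Lats2 stood at 17.3 and 19.0 in WT and 25.6 and 26.1 in LATS1/2 KO, with 0.51 ± 0.10. Lats1 was thus lower and Lats2 higher in the LATS1/2 KO libraries. The 3' tags need not cover the deleted exons, so neither value measures the loss of function. In luminal ER+ and basal cells neither gene passed the test.

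**Figure D1:**
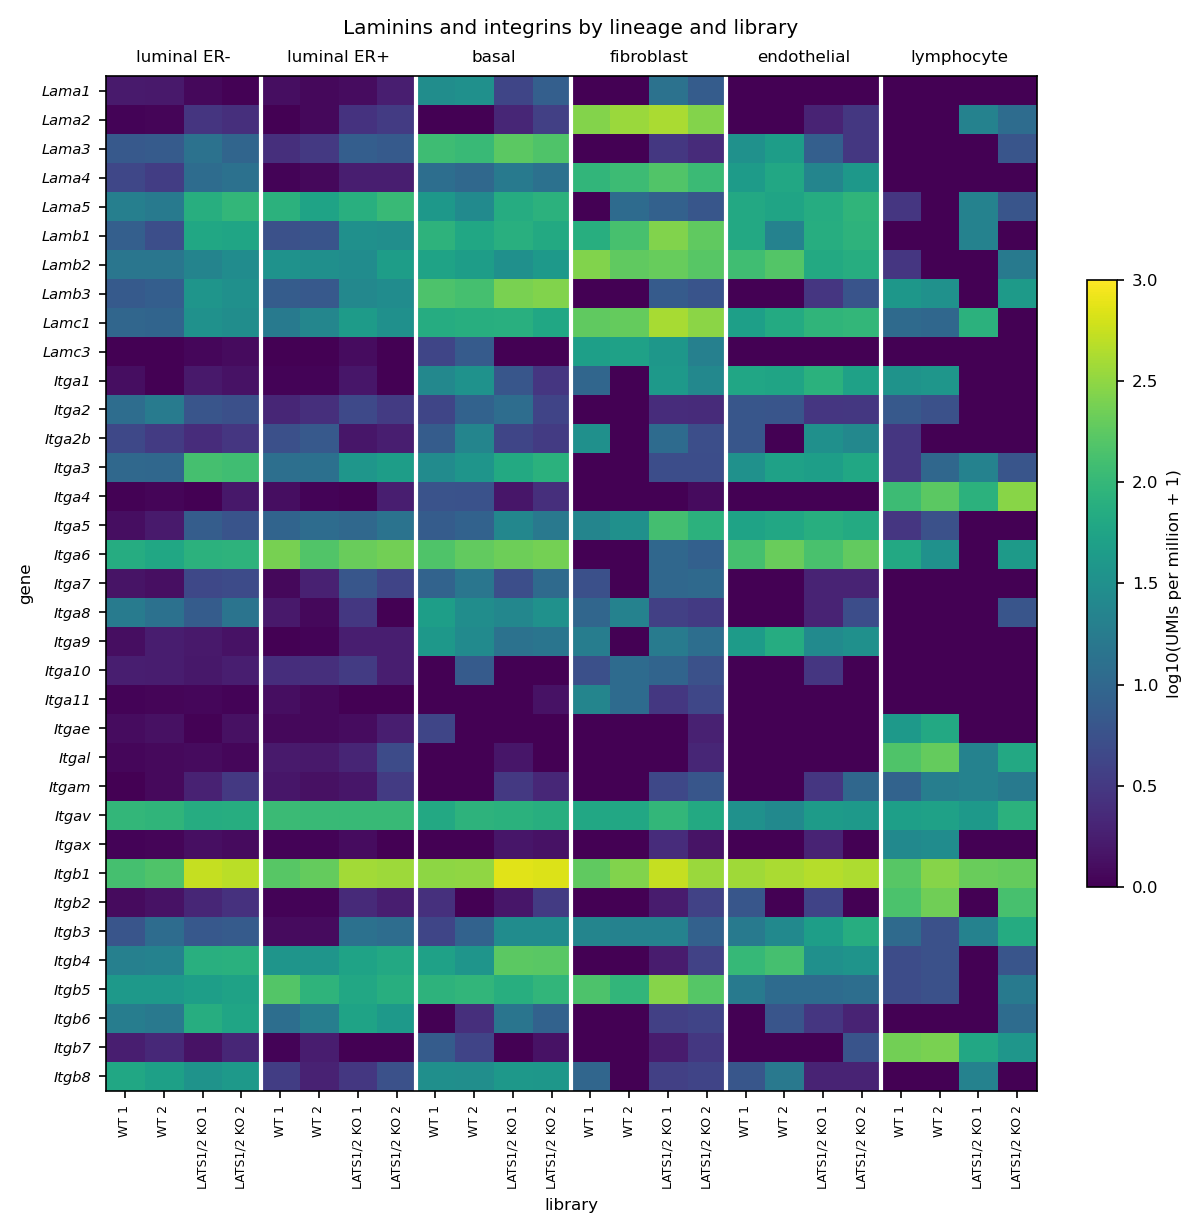
Levels of the laminin and integrin genes in 6 lineages and 4 libraries, as log10 of CPM plus 1, with 1 column per library and 1 row per gene shown. Brighter colours are higher. Lama2 is bright in fibroblasts and at 0 in WT endothelial cells, Itgb7 and Itgal are highest in WT lymphocytes, and the Itga3 and Lamb1 rows are brighter in LATS1/2 KO than in WT luminal ER- cells.

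In WT glands, basal cells carried more RNA of most laminin chains than luminal ER- cells, fibroblasts carried the alpha 2 chain and endothelial cells the epithelial-type receptor alpha 6 beta 4. Of 30 member rows tested between basal and luminal ER- cells with edgeR's quasi-likelihood test and Benjamini-Hochberg adjustment, 21 were higher and 1 was lower in basal cells, 73.3% of those tested, while 40.0% of all genes tested passed. All 10 laminin chains that passed were higher in basal cells, as were 11 of the 12 integrin subunits that did. The alpha 1 chain Lama1 stood at 0.726 and 0.666 in luminal ER- cells and 30.9 and 31.9 in basal cells, a log2 difference of 5.46 ± 0.57 (SE).

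The alpha 3 and beta 3 chains were both higher in WT basal cells. In CPM, Lama3 stood at 6.62 and 6.92 in luminal ER- cells and 123 and 108 in basal cells (log2 difference 4.09) and Lamb3 at 6.70 and 7.63 in luminal ER- cells and 154 and 132 in basal cells (4.32). Neither overlapped between the lineages. The widely used beta 1 and gamma 1 chains followed, with Lamb1 at 7.98 and 4.71 in luminal ER- cells and 90.9 and 62.2 in basal cells (3.59) and Lamc1 at 9.78 and 9.27 in luminal ER- cells and 75.5 and 76.6 in basal cells (2.99). Smaller log2 differences were those of Lamb2 (1.73), Lama4 (1.70) and Lama5 (0.80). Lamc3 passed on 2 and 4 UMIs in basal cells against none in luminal ER- cells.

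Among the receptors, the collagen and laminin receptor subunit Itga1 stood at 0.342 and 0 in luminal ER- cells and 25.7 and 33.5 in basal cells and Itga9, a tenascin receptor subunit, at 0.342 and 0.820 in luminal ER- cells and 41.2 and 27.1 in basal cells. Itga5, the fibronectin receptor subunit, stood at 0.342 and 0.717 in luminal ER- cells and 6.86 and 7.97 in basal cells, and Itga4 also passed on 3 and 3 basal UMIs. These low-level alpha subunits differed more than the laminin receptors proper. Itga6 stood at 78.5 and 66.0 in luminal ER- cells and 158 and 193 in basal cells (log2 difference 1.30), Itgb4 at 21.5 and 22.4 in luminal ER- cells and 54.9 and 36.7 in basal cells (1.05), and the common beta subunit Itgb1 at 145 and 164 in luminal ER- cells and 328 and 322 in basal cells (1.07). Itga3 (1.68), Itga2b (2.19), Itga8 (1.26) and Itgb5 (1.04) were higher in basal cells as well. Itgb8, the partner of alpha v in releasing TGF-beta, was lower in basal cells, at 66.5 and 54.8 in luminal ER- cells and 32.6 and 30.3 in basal cells (-0.95).

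The luminal lineages of WT differed from each other as well. Of 30 rows, 9 were higher and 7 lower in luminal ER+ than in luminal ER- cells, 53.3% against 61.9% of all genes tested (31.0% higher, 30.9% lower). Itga5 had the highest log2 difference, 4.08, and stood at 0.342 and 0.717 in luminal ER- cells and 8.11 and 10.0 in luminal ER+ cells. The alpha 5 chain Lama5 stood at 20.7 and 18.1 in luminal ER- cells and 82.4 and 52.1 in luminal ER+ cells (1.77) and Itga6 at 78.5 and 66.0 in luminal ER- cells and 237 and 145 in luminal ER+ cells (1.38). Itgal (1.76), Itgb5 (1.35), Lamc1 (0.97), Lamb2 (0.96) and Itgb4 (0.65) were also higher in ER+ cells. Of these, Itgal passed on 9 and 8 UMIs in ER+ cells against 3 and 4 in ER- cells. Other subunits were lower in ER+ than in ER- cells. Itgb8 stood at 66.5 and 54.8 in luminal ER- cells and 2.46 and 0.906 in luminal ER+ cells, Itgb3 at 5.76 and 11.5 in luminal ER- cells and 0.217 and 0.209 in luminal ER+ cells and Itga8 at 18.7 and 13.6 in luminal ER- cells and 0.579 and 0.139 in luminal ER+ cells. Lama4 (-4.70), Itga9 (-3.39), Lama3 (-1.89) and Itgb7 (-1.45) were lower in ER+ cells too.

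In the stroma of WT glands, 5 of 30 rows were higher and 7 lower in fibroblasts than in endothelial cells, 40.0% against 18.5% of all genes tested (8.68% higher, 9.85% lower). The alpha 2 chain Lama2 stood at 0 UMIs in both endothelial sums and at 284 and 327 CPM in fibroblasts, at least 19.6-fold higher when a floor of 3 UMIs per library stands in for 0. Lamc3 was at least 3.24-fold higher in fibroblasts by the same floor. Conversely Itga6 stood at 126 and 195 in endothelial cells and at 0 in fibroblasts, at least 8.78-fold lower, and Itgb4 at 99.5 and 122 and 0, at least 6.03-fold lower. Itga3 and Lama3, at 0 in WT fibroblasts, were at least 2.19-fold and 2.06-fold lower. Itgb5 (3.27), Lamc1 (1.78) and Lamb2 (0.81) had positive log2 differences and Lama5 (-4.32), Itga1 (-3.25) and Itgb1 (-0.83) negative ones. These WT sums rest on 23 to 54 cells.

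Matching sets of chains were then read per lineage. A trimer or receptor was counted as complete where each of its chains reached 10 CPM and 2 times the UMIs expected from free RNA in both libraries of a group. This is a statement on RNA of all chains in the same class of cells, not on assembled protein. WT luminal ER- cells held no complete laminin trimer, and lacked only Lamc1 for laminin-521, while they held the receptors alpha 6 beta 4, alpha 6 beta 1 and alpha 2 beta 1. In LATS1/2 KO, luminal ER- cells held laminin-411, laminin-421, laminin-511 and laminin-521. Their receptor set was alpha 6 beta 4, alpha 6 beta 1 and alpha 3 beta 1, so alpha 3 beta 1 was complete in the mutant and alpha 2 beta 1 in WT. The limit was set on CPM without the TMM factors of the tests, and some chains lay near it. Itga3 stood at 9.27 and 9.14 in WT and Lama4 at 10.36 and 12.18 in LATS1/2 KO. With TMM factors WT Itga3 lies over 10 CPM, so these differences in complete sets depend on the scale.

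WT luminal ER+ cells held laminin-521 and LATS1/2 KO luminal ER+ cells laminin-511 and laminin-521, with alpha 6 beta 4, alpha 6 beta 1 and alpha 3 beta 1 in both. Laminin-511 and laminin-521 and the same 3 receptors were complete in basal cells of both groups. Laminin-111 and alpha 1 beta 1 were complete in WT basal cells only, because Lama1 and Itga1 lay under the limit in LATS1/2 KO. Laminin-411 and laminin-421 were complete in LATS1/2 KO basal cells only, where Lama4 moved across the limit without passing the test. Fibroblasts of both groups held laminin-211, laminin-411 and laminin-421, and endothelial cells of both groups laminin-411, laminin-421, laminin-511 and laminin-521 with alpha 6 beta 4, alpha 6 beta 1, alpha 3 beta 1 and alpha 1 beta 1. WT fibroblasts held none of the 6 receptors examined, and LATS1/2 KO fibroblasts held alpha 1 beta 1. In WT fibroblasts 3 UMIs already make 13.2 and 31.0 CPM, and in WT endothelial cells 16.1 and 15.3, so absence there is limited by depth. Itga1 had 2 and 0 UMIs in WT fibroblasts and 60 and 107 in LATS1/2 KO, and its change did not pass the test. WT lymphocytes held no trimer and the receptors alpha 6 beta 1 and alpha 1 beta 1.

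Luminal ER- cells, the most numerous lineage, carried more RNA of most laminin chains and of the integrin subunits beta 1, beta 4 and alpha 3 in LATS1/2 KO than in WT. Of 31 member rows tested, 16 were higher and 7 lower in LATS1/2 KO, 74.2%, beside 64.8% of all 13736 genes tested (33.8% higher, 30.9% lower). Among laminins 8 of 10 were higher and 1 lower, and among integrins 8 of 21 were higher and 6 lower. The median log2 fold change was 1.16 over the members tested and 0.02 over all genes. Levels in tested comparisons are CPM scaled by edgeR's TMM factors. Without those factors each log2 fold change in this lineage would be 0.366 larger, which leaves the sign of all called members as given. A sum over a lineage cannot tell fewer cells with a gene from less RNA of it per cell.

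The laminin beta 1 chain Lamb1 (chromosome 12, 31265234 to 31329644, plus strand, mm10) stood at 8.15 and 4.81 in WT and 53.3 and 50.0 in LATS1/2 KO, a log2 fold change of 2.98 ± 0.20 (SE, edgeR adjusted p = 1.86e-05). Its usual partner, the gamma 1 chain Lamc1, stood at 9.99 and 9.46 in WT and 28.3 and 25.2 in LATS1/2 KO (1.46 ± 0.11). The alpha 5 chain Lama5, which joins both in laminin-511, stood at 21.2 and 18.5 in WT and 66.8 and 84.1 in LATS1/2 KO (1.92 ± 0.14). All 3 chains of laminin-511 were therefore higher in both LATS1/2 KO libraries than in either WT library, and Lama4 (log2 fold change 1.56) and Lamb2 (0.44) rose too. The beta 3 chain Lamb3 stood at 6.85 and 7.78 in WT and 31.9 and 27.5 in LATS1/2 KO (2.02 ± 0.13). The alpha 3 chain Lama3 did not pass, at 6.76 and 7.05 in WT and 11.2 and 7.34 in LATS1/2 KO (0.42 ± 0.22, edgeR adjusted p = 0.125). Lama1 was the laminin that fell, from 0.741 and 0.679 to 0.141 and 0.0298 (-3.06 ± 0.61), on 17 and 13 UMIs against 4 and 1. The call on Lamb2 was lost with DESeq2 and without WT replicate 1, WT replicate 2 or LATS1/2 KO replicate 2.

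The receptor subunit Itga3 (chromosome 11, 95044474 to 95076801, minus strand, mm10), which pairs with beta 1 and binds laminin-511, had the highest fold change of a member with more than 1 CPM in WT. It stood at 10.6 and 10.3 in WT and 114 and 104 in LATS1/2 KO, a log2 fold change of 3.38 ± 0.11 (SE, edgeR adjusted p = 1.50e-06). Its partner Itgb1 (chromosome 8, 128685654 to 128733200, plus strand) stood at 148 and 168 in WT and 480.0 and 430.1 in LATS1/2 KO (1.53 ± 0.11, edgeR adjusted p = 2.55e-05), and Itgb4 at 22.0 and 22.9 in WT and 69.0 and 69.1 in LATS1/2 KO (1.62 ± 0.09). Itga6, which pairs with either of these beta subunits, did not pass, at 80.1 and 67.3 in WT and 73.8 and 75.2 in LATS1/2 KO (0.01 ± 0.11, edgeR adjusted p = 0.915), and its groups overlapped. On the TMM scale the beta 1 and beta 4 subunits were thus higher while the level of alpha 6 was within the spread of the mice. Without TMM factors Itga6 stood at 70.4 and 59.4 in WT and 83.0 and 86.0 in LATS1/2 KO. On that scale its groups did not overlap, so its unchanged level depends on the normalization. Itga7, the muscle laminin receptor subunit, stood at 0.480 and 0.366 in WT and 3.09 and 3.37 in LATS1/2 KO (2.91), Itga5 at 0.349 and 0.731 in WT and 5.97 and 4.36 in LATS1/2 KO (3.28), and Itgb6, which pairs with alpha v, rose by a log2 fold change of 1.61.

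Among the integrins that fell was Itga2, a collagen and laminin receptor subunit. It stood at 12.3 and 18.7 in WT and 4.57 and 3.85 in LATS1/2 KO, a log2 fold change of -1.88 ± 0.23 (SE). Itgav fell by 0.77, Itgb8 by 0.93, Itga8 by 0.92 and Itga2b, known from platelets, by 1.14 on the log2 scale. Of the alpha v family, Itgb6 was thus higher, Itgav and Itgb8 lower, and Itgb5 (-0.07) and Itgb3 (-0.74, edgeR adjusted p = 0.0634) did not pass. The calls on Itga2b and Itga8 were lost without WT replicate 1.

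Some members passed at levels near those of free RNA, the RNA of burst cells that is captured with any cell. Lama2 stood at 0.0872 and 0.104 in WT and 1.72 and 1.37 in LATS1/2 KO and reached 0.91 times the UMIs expected from free RNA in LATS1/2 KO. The leukocyte subunits Itgam and Itgb2 stood at 0 and 0.209 in WT and 0.843 and 1.91 in LATS1/2 KO and at 0.262 and 0.470 in WT and 0.983 and 1.46 in LATS1/2 KO, with 1.93 and 2.36 times the expected UMIs. By contrast the ratio was 16.53 for Itga3, 13.8 for Itgb1, 11.46 for Lamb1 and 15.49 for Lama5. The other Itgam identifier fell, with a log2 fold change of -1.07. Not tested for low counts were Lamc3, Itga4, Itgal, Itgax, Itgad, Itga11 and Itgae, while Itgb7, Itga10, Itga9 and Itga1 were tested and did not pass.

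Markers of other lineages moved with these genes. In luminal ER- cells the basal keratin Krt14 stood at 2.83 and 2.12 CPM in WT and 1630.25 and 1191.26 in LATS1/2 KO, against 1905.97 and 1724.63 in WT basal cells. Of the 10 basal markers, 5 were higher and 3 lower, with summed levels of 50.2 and 44.1 in WT and 1754.5 and 1308.3 in LATS1/2 KO. Of the 10 luminal ER- markers 9 were lower, and the summed fibroblast markers stood at 109.3 and 108.1 against 347.3 and 372.3. Their part in the laminin and integrin values was not tested. Cells that passed both the luminal and the basal limit, 22 and 10 in WT and 184 and 125 in LATS1/2 KO, were left out.

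**Figure D2:**
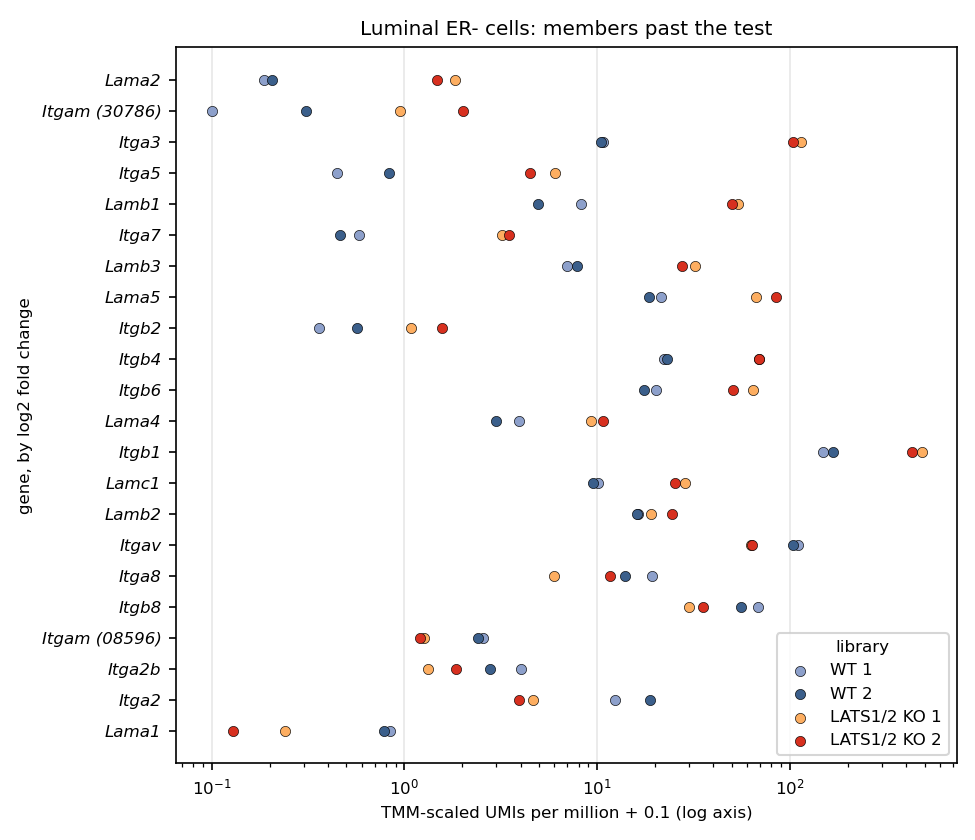
The 22 member rows shown all passed the test in luminal ER- cells, with 1 point per library, on a log axis of TMM-scaled CPM plus 0.1. The LATS1/2 KO points lie right of the WT points from Lama2 down to Lamb2, with the widest gaps at Itga3 and Lamb1 among genes over 1 CPM, and left of them for the 7 rows that fell.

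In luminal ER+ cells, 11 of 22 rows were higher in LATS1/2 KO and 1 lower, 54.5%, beside 25.8% of all genes tested (13.4% higher, 12.4% lower). Of the laminins 5 of 7 were higher and none lower. Lamb1 stood at 4.69 and 5.02 in WT and 31.6 and 28.6 in LATS1/2 KO, a log2 fold change of 2.64 ± 0.19 (SE, edgeR adjusted p = 5.48e-04), and Lamc1 at 16.8 and 22.6 in WT and 43.4 and 30.1 in LATS1/2 KO (0.95). The alpha 3 and beta 3 chains passed as well, with Lama3 at 1.59 and 2.18 in WT and 6.94 and 6.02 in LATS1/2 KO (1.80 ± 0.38) and Lamb3 at 6.58 and 5.90 in WT and 24.2 and 27.1 in LATS1/2 KO (2.02 ± 0.20). Lama3 remained under 10 CPM in each library. Lama5, already higher in WT ER+ than in WT ER- cells, did not pass (0.34, edgeR adjusted p = 0.358), nor did Lamb2 (0.13).

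The beta 3 subunit Itgb3 had the highest fold change in ER+ cells. It stood at 0.227 and 0.218 in WT and 12.1 and 10.5 in LATS1/2 KO (5.59 ± 0.44), on 3 and 3 UMIs in WT and 47 and 14 in LATS1/2 KO. In WT it had been one of the subunits lower in ER+ than in ER- cells. Itga3 stood at 11.7 and 11.9 in WT and 37.0 and 44.4 in LATS1/2 KO (1.76 ± 0.17), Itgb1 at 168 and 194 in WT and 389 and 355 in LATS1/2 KO (1.04 ± 0.12) and Itgb4 at 36.1 and 35.9 in WT and 54.7 and 61.7 in LATS1/2 KO (0.68 ± 0.12). The subunits of alpha 3 beta 1 and the beta 4 subunit were thus higher as in ER- cells, and Itga6, at 248 and 151 in WT and 209 and 225 in LATS1/2 KO (0.12, edgeR adjusted p = 0.739), again overlapped between groups. Itgb6 stood at 11.3 and 18.3 in WT and 54.7 and 39.1 in LATS1/2 KO (1.71) and Itga7 at 0.151 and 0.874 in WT and 5.40 and 3.01 in LATS1/2 KO (3.10). Itga2b alone fell, from 4.46 and 5.90 to 0.514 and 0.753 (-3.13), on 2 and 1 UMIs in LATS1/2 KO.

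The ER+ result leans on LATS1/2 KO replicate 1, which holds 437 of these cells against 123 in LATS1/2 KO replicate 2. With that library left out, 6 rows passed, and the calls on Itga2b, Itgb6, Lama3, Lamc1 and Itga7 were among those lost. The summed fibroblast markers in this class stood at 119.0 and 628.9 in WT and 1008.5 and 677.7 in LATS1/2 KO, and Krt14 at 3.19 and 2.41 against 120.76 and 45.28. Their part in the result was not tested.

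Basal cells differed as well. In LATS1/2 KO 8 of 22 rows were higher and 3 lower, 50.0%, beside 33.3% of all genes tested (16.8% higher, 16.5% lower). The beta 3 chain Lamb3 stood at 156 and 134 in WT and 247 and 259 in LATS1/2 KO, a log2 fold change of 0.81 ± 0.16 (SE, edgeR adjusted p = 9.10e-04), and Lama5 at 41.5 and 27.4 in WT and 71.0 and 80.6 in LATS1/2 KO (1.15 ± 0.24). Lama3 did not pass, at 124 and 109.6 in WT and 173 and 145 in LATS1/2 KO (0.44, edgeR adjusted p = 0.0588). The beta 1 and gamma 1 chains, which rose in both luminal lineages, did not pass here, with Lamb1 at 91.6 and 62.9 in WT and 75.3 and 63.2 in LATS1/2 KO (-0.16) and Lamc1 at 76.0 and 77.4 in WT and 75.3 and 57.5 in LATS1/2 KO (-0.22). Lama1, a basal chain in WT, fell from 31.1 and 32.2 to 3.20 and 6.81 (-2.57 ± 0.40).

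Of the basal receptors, Itgb4 stood at 55.3 and 37.1 in WT and 172 and 162 in LATS1/2 KO (1.86 ± 0.21) and Itgb3 at 3.46 and 8.06 in WT and 27.8 and 26.9 in LATS1/2 KO (2.21 ± 0.45). Itgb1 stood at 330.1 and 326 in WT and 734 and 671 in LATS1/2 KO (1.10 ± 0.15, edgeR adjusted p = 2.50e-05) and Itga3 at 29.4 and 37.1 in WT and 65.2 and 79.1 in LATS1/2 KO (1.12 ± 0.24). The beta 1, beta 4 and alpha 3 subunits were thus higher in LATS1/2 KO in all 3 epithelial lineages, each without overlap between groups, and Itga6, at 159 and 195 in WT and 215 and 229.8 in LATS1/2 KO (0.33, edgeR adjusted p = 0.128), passed in none. Itga5 was higher on few counts, at 6.91 and 8.06 in WT and 23.5 and 14.8 in LATS1/2 KO (1.30, edgeR adjusted p = 0.0471). A pair of subunits that were higher in basal than in luminal ER- cells of WT fell. Itga1 went from 25.9 and 33.9 to 5.34 and 1.89 (-3.13 ± 0.46) and Itga9 from 41.5 and 27.4 to 12.3 and 13.2 (-1.41 ± 0.33). Itgb6 was not tested, with 0 and 1 UMIs in WT and 25 and 20 in LATS1/2 KO.

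The WT basal sums hold 185 and 158 cells, and the calls depended on both. Without WT replicate 1 there were 7 calls and without WT replicate 2 there were 3. Itga3, Itga9, Itgb3 and Lama1 lost the call without either, and Itga1, Lama5 and Lamb3 without WT replicate 2. All 10 basal markers differed between the groups, 3 higher and 7 lower in LATS1/2 KO, and the summed epithelial markers stood at 1284.0 and 1098.6 in WT and 3563.8 and 2815.7 in LATS1/2 KO. The summed fibroblast markers, 4 of 6 tested higher and 1 lower, stood at 472.9 and 502.4 against 1731.5 and 1576.0. Their part in the result was not tested.

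**Figure D3:**
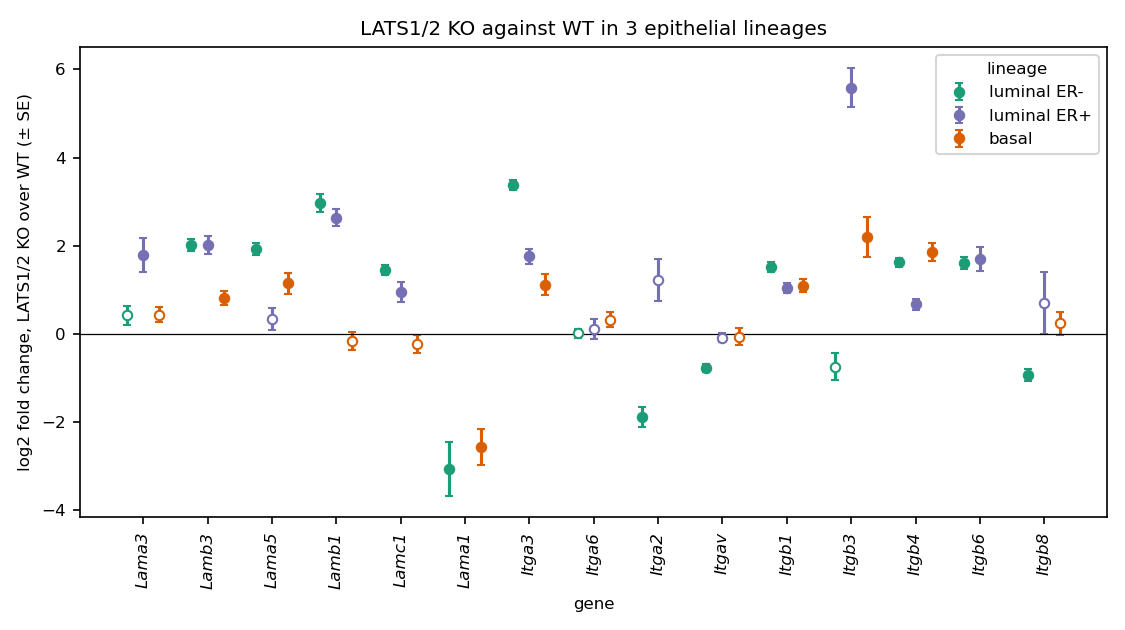
Log2 fold change of LATS1/2 KO over WT with its standard error for 15 members in luminal ER-, luminal ER+ and basal cells, with filled symbols for those that passed the test, open ones for those that did not, and no symbol where a gene was not tested. Itgb1, Itgb4, Itga3 and Lamb3 are filled and above 0 in all 3 lineages, Lamb1 and Lamc1 lie near 0 in basal cells, and Itga6 is open throughout.

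Whether the lineages differed was tested with an interaction term, and 13 of 33 rows differed between ER+ and ER- cells (39.4% beside 31.1% of all genes, 14.9% higher and 16.1% lower) and 12 of 33 between basal and ER- cells (36.4% beside 22.8%, 13.2% higher and 9.58% lower). The effect of LATS1/2 KO was smaller in ER+ than in ER- cells for Itga3 by a log2 difference of -1.63, for Lama5 by -1.55, for Itgb4 by -0.95 and for Itgb1 by -0.48. Lamb1, Lamb3 and Lamc1 did not pass the test of a difference between these 2 lineages (log2 differences of -0.38, -0.02 and -0.52). In basal cells the effect was smaller than in ER- cells for Lamb1 (-3.04), Itga3 (-2.13), Lamc1 (-1.55), Lamb3 (-1.09) and Lamb2 (-0.89). Itgb1 (-0.31, edgeR adjusted p = 0.0785) and Itgb4 (0.36, edgeR adjusted p = 0.267) did not pass there. Itgb3, Itga2, Itgb8 and Itgav had a higher effect than in ER- cells in both tests, with Itgb3 higher by 6.39 in ER+ and 3.11 in basal cells. In ER+ cells of LATS1/2 KO Itgb8 had 8 and 6 UMIs, beside 8.64 and 3.06 expected from free RNA. The lineages of LATS1/2 KO also differed in the share of cells with EYFP UMIs. It was 24.6 and 30.2% in ER- cells, 7.55 and 15.4% in ER+ cells and 2.95 and 3.20% in basal cells, beside 0.541 and 1.27% in WT basal cells. The part of this share in the differences was not tested.

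Outside the epithelium fewer members passed. In fibroblasts 2 of 14 rows were higher in LATS1/2 KO and none lower, 14.3%, beside 5.73% of all genes tested (2.73% higher, 3.0% lower). Itga5 stood at 22.1 and 29.9 in WT and 132 and 91.8 in LATS1/2 KO (2.17 ± 0.45, edgeR adjusted p = 0.0205) and was higher in both mutant libraries than in either WT library. Its WT values rest on 5 and 3 UMIs. Lamb1 at 75.3 and 129 in WT and 287 and 199.8 in LATS1/2 KO, Itgb1 at 186 and 259 in WT and 572 and 383 in LATS1/2 KO and Lamc1 at 186 and 189 in WT and 425 and 327 in LATS1/2 KO did not overlap between the groups but did not pass (edgeR adjusted p = 0.0593, 0.0713 and 0.0751). Lama2, the fibroblast alpha chain, stood at 279 and 338 in WT and 441 and 302 in LATS1/2 KO and overlapped. The count rests on the 54 and 23 WT cells and ran from 0 to 5 when 1 library was left out; without WT replicate 1 or WT replicate 2 Itga5 no longer passed. In CPM, the summed epithelial markers in the fibroblast class stood at 832.8 and 247.8 in WT and 1154.1 and 537.4 in LATS1/2 KO, and their part in these values was not tested.

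In endothelial cells 2 of 16 rows were higher and 3 lower in LATS1/2 KO, 31.2%, beside 10.9% of all genes tested (4.96% higher, 5.94% lower). Lama3 fell from 33.5 and 46.1 to 7.46 and 2.15 (-3.00 ± 0.63), Itgb4 from 106 and 128 to 33.0 and 36.6 (-1.75 ± 0.33) and Lamb2 from 123 and 159 to 69.3 and 77.5 (-0.94 ± 0.28). The fall of Itgb4 contrasts in direction with its rise in all 3 epithelial lineages; this difference between lineages was not tested. Itgb3 stood at 16.7 and 25.6 in WT and 50.1 and 77.5 in LATS1/2 KO (1.57, edgeR adjusted p = 0.0419) and Itga2b, its partner on platelets, at 5.58 and 0 in WT and 33.0 and 25.8 in LATS1/2 KO (3.36, edgeR adjusted p = 0.022). The WT values are 3 and 5 UMIs for Itgb3 and 1 and 0 for Itga2b. Both calls were lost with classes from clusters and with a stricter gate, and that on Itgb3 also with DESeq2. Itgb1 at 391 and 415 in WT and 491 and 450.0 in LATS1/2 KO, Itga6 at 134 and 205 in WT and 143 and 200.2 in LATS1/2 KO, Lamb1 at 67.0 and 20.5 in WT and 76.8 and 91.5 in LATS1/2 KO and Lamc1 at 50.2 and 66.6 in WT and 95.9 and 102 in LATS1/2 KO did not pass. Without WT replicate 1 or WT replicate 2 edgeR called none of all 8611 and 8575 genes (1276 and 938 at an unadjusted p under 0.05), members included. Without LATS1/2 KO replicate 1 or 2 it called 1 member, and 295 of 3782 and 428 of 3770 genes. In CPM, the summed fibroblast markers in this class stood at 172.0 and 15.3 in WT and 598.8 and 530.0 in LATS1/2 KO and the epithelial ones at 467.5 and 327.2 against 1341.0 and 709.7, and their part was not tested.

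In lymphocytes 1 of 6 rows passed, 16.7% beside 1.26% of all genes tested (1.08% higher, 0.18% lower). Itgb7, a gut and mucosal homing subunit, fell from 277 and 269 to 67.7 and 43.5 (-2.45 ± 0.42, edgeR adjusted p = 0.0169), on 3 and 7 UMIs in LATS1/2 KO. Itgal, the alpha subunit of LFA-1, stood at 179 and 209 in WT and 22.6 and 74.6 in LATS1/2 KO and did not pass (-1.64, edgeR adjusted p = 0.194), nor did Itgb2, Itga4, Itgb1 and Itgav. Itgae stood at 20 and 14 UMIs in WT and 0 in LATS1/2 KO and was not tested. The call on Itgb7 was lost with DESeq2, without LATS1/2 KO replicate 2, with free RNA subtracted and with sums thinned to the smallest. The summed lymphocyte markers of this class stood at 5697.0 and 6169.6 CPM in WT and 3075.4 and 3238.7 in LATS1/2 KO. The fibroblast markers, 5 of 5 tested higher, stood at 21.9 and 18.4 against 1032.0 and 908.1 and the epithelial ones at 665.3 and 679.4 against 2249.8 and 1265.0. Free RNA was expected to make up 2.62 and 2.69% of the UMIs in WT and 20.1 and 8.93% in LATS1/2 KO. Their part in the Itgb7 value was not tested.

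Macrophages and perivascular cells were too few in WT to compare (4 and 4, and 10 and 1 cells) and are given for LATS1/2 KO alone. The 226 and 341 macrophages carried the leukocyte integrins, with Itgam at 249 and 356 CPM, Itgb2 at 207 and 195 and Itgax at 72.3 and 33.6. They also carried Itgb1 at 199.9 and 219.7 and Itgb5 at 122 and 136, and alpha 6 beta 1 was their one complete laminin receptor. The 34 and 47 perivascular cells held Itgb1 at 1064 and 775, Itga1 at 192 and 100.1, Itga7 at 40.0 and 75.0 and Lamb1 at 360.0 and 219. They held laminin-211, laminin-411, laminin-421, laminin-511 and laminin-521 with alpha 7 beta 1 and alpha 1 beta 1 as receptors.

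The EYFP reporter marks cells in which the recombinase acted, and luminal cells with and without EYFP RNA were compared to see whether the members followed it. EYFP UMIs were found in 13 of 4273 and 14 of 3148 luminal cells of WT, 0.304% and 0.445%, and in 633 of 2900 and 776 of 2631 luminal cells of LATS1/2 KO, 21.8% and 29.5%. EYFP-positive cells were deeper, with a median of 13650 and 15183 UMIs against 7410 and 7461 in cells without an EYFP UMI, and in the latter (EYFP = 0) a missed reporter cannot be told apart from an absent one. In LATS1/2 KO cells without an EYFP UMI, Lats1 stood at 18.3 and 20.2, and in EYFP-positive cells at 9.81 and 11.3 (-0.86 ± 0.13).

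Within the LATS1/2 KO mice, 10 of 28 rows were higher and 5 lower in EYFP-positive than in EYFP = 0 cells, 53.6%, beside 44.0% of all 12995 genes tested (21.1% higher, 22.9% lower). All 15 moved the same way in both mice, but they were called from these same mice, so this adds no support. Of the laminins 5 of 9 were higher and 1 lower. Lama3 stood at 9.28 and 5.09 in EYFP = 0 cells and 17.5 and 12.4 in EYFP-positive cells, a log2 difference of 1.08 ± 0.15 (SE, edgeR adjusted p = 1.93e-11). With Lamb3 at 29.8 and 25.6 in EYFP = 0 cells and 44.8 and 38.3 in EYFP-positive cells (0.58 ± 0.10), both chains were higher in EYFP-positive cells of each mouse. Lamb1 stood at 48.2 and 39.7 in EYFP = 0 cells and 73.9 and 76.7 in EYFP-positive cells (0.78 ± 0.08), and Lama5 rose by a log2 difference of 0.35. Lamc1, at 32.6 and 28.4 in EYFP = 0 cells and 36.2 and 29.0 in EYFP-positive cells (0.09, edgeR adjusted p = 0.485), overlapped between the cells. Lama4 was lower, at 10.6 and 15.1 in EYFP = 0 cells and 6.12 and 6.87 in EYFP-positive cells (-0.99 ± 0.16).

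Among the receptors Itga3 stood at 88.7 and 75.1 in EYFP = 0 cells and 174 and 168 in EYFP-positive cells (1.06 ± 0.07, edgeR adjusted p = 4.18e-49), Itgb6 at 57.8 and 41.1 in EYFP = 0 cells and 96.9 and 77.0 in EYFP-positive cells (0.82 ± 0.08) and Itga5 at 5.45 and 4.69 in EYFP = 0 cells and 10.8 and 6.11 in EYFP-positive cells (0.70). Itgb4 stood at 64.6 and 66.2 in EYFP = 0 cells and 97.3 and 93.2 in EYFP-positive cells (0.54 ± 0.08) and Itgb1 at 468 and 422 in EYFP = 0 cells and 637 and 563 in EYFP-positive cells (0.43 ± 0.05). The subunits of alpha 3 beta 1 and the beta 4 subunit were therefore higher with the reporter. Itga6 did not pass, at 105 and 94.1 in EYFP = 0 cells and 93.5 and 88.7 in EYFP-positive cells (-0.13, edgeR adjusted p = 0.156). The integrins lower in EYFP-positive cells were Itga8, at 8.02 and 17.5 in EYFP = 0 cells and 2.00 and 6.11 in EYFP-positive cells (-1.66), Itgb8, at 34.7 and 50.3 in EYFP = 0 cells and 19.1 and 22.5 in EYFP-positive cells (-1.03), Itga2, at 5.40 and 5.66 in EYFP = 0 cells and 4.22 and 2.41 in EYFP-positive cells (-0.78), and Itga10, at 0.908 and 1.24 in EYFP = 0 cells and 0.527 and 0.151 in EYFP-positive cells (-1.77). Cells were also thinned to 2000 UMIs and sorted by EYFP again, which left 290 and 348 EYFP-positive cells of 633 and 776 and put 2464 and 2166 in place of 2267 and 1855 in the EYFP = 0 class. Depth and the makeup of both classes thus changed together. With these classes 9 calls were left; those on Itga2, Itga5, Itgb4, Lama4 and Lama5 were lost, and Itga10 was not tested at that depth. Without the mouse as a block 5 rows passed. Of the 10 fibroblast markers, 9 were lower in EYFP-positive cells, and their part in the lower members was not tested.

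Both sets of mutant cells were also set against all WT luminal cells, which they share as controls. In EYFP = 0 cells 14 of 32 rows were higher and 6 lower than in WT, 62.5% beside 49.3% of all genes tested (25.6% higher, 23.6% lower), and in EYFP-positive cells 15 of 30 were higher and 9 lower, 80.0% beside 63.4% (31.6% higher, 31.8% lower). Itga3 stood at 10.9 and 11.3 in WT, at 81.9 and 69.4 in EYFP = 0 cells and at 162 and 157 in EYFP-positive cells, with log2 fold changes over WT of 2.76 ± 0.12 and 3.84 ± 0.08 (SE). For Lamb1 these levels were 6.98 and 5.24, 44.5 and 36.7 and 68.8 and 71.9, with 2.73 ± 0.18 and 3.52 ± 0.15. For Itgb1 they were 156 and 180.2, 432 and 390.2 and 593 and 528, with 1.29 ± 0.12 and 1.74 ± 0.11. These genes were thus higher than in WT also in mutant luminal cells in which the reporter was not detected.

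The same held for Lamb3, with log2 fold changes over WT of 1.94 in EYFP = 0 and 2.53 in EYFP-positive cells. The other pairs of values were 1.43 and 2.26 for Itgb6, 1.08 and 1.63 for Itgb4, 0.99 and 1.10 for Lamc1, and 0.81 and 1.17 for Lama5. Itga7 (2.64 and 3.11) and Lama4 (2.58 and 1.61) rose in both, on low levels. Lama3 differed in this respect. It stood at 4.76 and 5.21 in WT and 8.57 and 4.71 in EYFP = 0 cells, where it did not pass (0.42, edgeR adjusted p = 0.286), and at 16.3 and 11.6 in EYFP-positive cells, where it did (1.47, edgeR adjusted p = 0.00144). Itgav fell by 0.63 and 0.57 and Itga2 by 0.89 and 1.65 on the log2 scale. Lama1 (-1.41 and -3.35) and Itga2b (-1.19 and -1.84) were lower in both and Itga10 in EYFP-positive cells (-1.94). Itgb5 also passed as lower in both sets of mutant cells. Lama2, Itgb2 and Itgam (ENSMUSG00000030786) were higher in both, and the other Itgam identifier was lower in EYFP = 0 cells. Itgb8 and Itga8 did not pass in EYFP = 0 cells and fell in EYFP-positive cells (-0.90 and -1.32).

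WT luminal cells hold a larger share of ER+ cells than the mutant ones, which bears on members that differ between the luminal lineages. Itga6 fell in EYFP-positive cells against all WT luminal cells (-0.56, edgeR adjusted p = 0.0232), but within luminal ER- cells alone its log2 fold change was 0.07 and did not pass. That call was also lost without WT replicate 1 or either LATS1/2 KO replicate. Within luminal ER- cells alone the calls on Itgb5 and Itga2b in EYFP = 0 cells were lost too. Higher in all 5 luminal comparisons (LATS1/2 KO against WT in ER- and in ER+ cells, EYFP = 0 and EYFP-positive cells against WT, and EYFP-positive against EYFP = 0 cells) were 7 members, among them Itga3, Itgb1, Itgb4, Itgb6, Lamb1 and Lamb3. These comparisons share libraries, so this is a count of their overlap and not of independent results. The share of all genes higher in all 5 was not counted, so 7 cannot be called many or few.

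**Figure D4:**
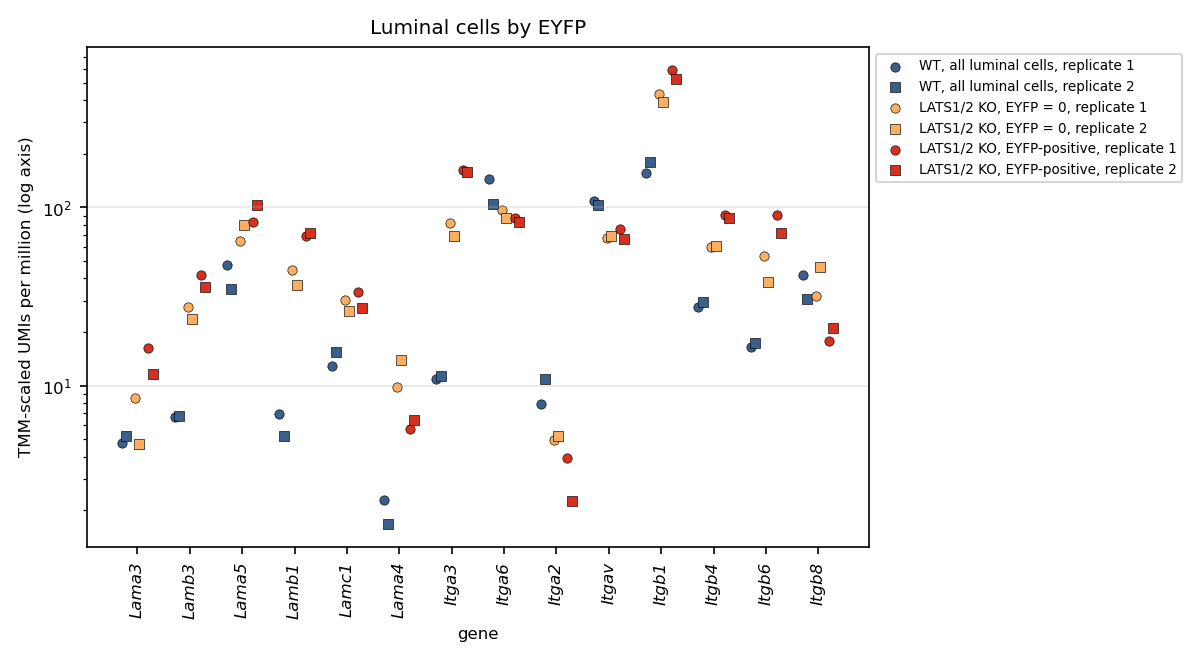
TMM-scaled CPM, on a log axis, of 14 members in luminal cells of WT, in LATS1/2 KO cells with no EYFP UMI and in EYFP-positive LATS1/2 KO cells, 1 point per mouse, with EYFP-positive values from their own comparison with WT. For Itga3, Lamb1 and Itgb6 the points rise from WT over EYFP = 0 to EYFP-positive cells, while Lama3 in EYFP = 0 cells overlaps WT and Itgb8 is lowest in EYFP-positive cells.

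YAP and TAZ act through TEAD factors, which bind a motif spelled GGAATG, or CATTCC on the other strand, and the promoters of members that were higher in all luminal comparisons were read for these letters after the values had been seen. RefSeq windows on GRCm38.p6, from 250 bases before to 50 bases after a start, were at hand for 23 members in 26 windows. The motif was found in 3 of these 26 and in 4817 of 32851 windows of all genes, 14.7%. Of these members, Itga3 (2 windows), Itgb6 (2 windows) and Lamb1 had no match, and Itgb1 and 1 of 2 windows of Lamb3 had 1 each; Itgb4 had no window. The third match was in Itga10, which fell in EYFP-positive cells. The Itgb1 window (chr8:128685404-128685703, plus strand, over the 5' end of the annotated gene) has its match at 7 bases before the start, the Lamb3 window (chr1:193301993-193302292, plus strand, inside the annotated gene) at 167 bases before the start, and the Lamb1 window (chr12:31265043-31265342, plus strand, at the 5' end of the gene) none. They are printed 5′ to 3′ to show the letters around the matches and a strongly changed gene without one, and capitals mark the motif.

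Itgb1: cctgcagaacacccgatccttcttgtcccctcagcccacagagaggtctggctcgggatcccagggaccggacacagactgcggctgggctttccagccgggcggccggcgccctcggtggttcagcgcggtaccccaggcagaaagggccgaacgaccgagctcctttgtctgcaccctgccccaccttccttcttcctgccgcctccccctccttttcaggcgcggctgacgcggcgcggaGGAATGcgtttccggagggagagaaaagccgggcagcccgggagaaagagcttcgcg
Lamb3: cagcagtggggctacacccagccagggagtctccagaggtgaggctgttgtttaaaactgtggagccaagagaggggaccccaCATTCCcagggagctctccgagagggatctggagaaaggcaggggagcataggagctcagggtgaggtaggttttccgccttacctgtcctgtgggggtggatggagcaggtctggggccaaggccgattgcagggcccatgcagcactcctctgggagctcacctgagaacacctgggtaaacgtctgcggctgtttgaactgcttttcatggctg
Lamb1: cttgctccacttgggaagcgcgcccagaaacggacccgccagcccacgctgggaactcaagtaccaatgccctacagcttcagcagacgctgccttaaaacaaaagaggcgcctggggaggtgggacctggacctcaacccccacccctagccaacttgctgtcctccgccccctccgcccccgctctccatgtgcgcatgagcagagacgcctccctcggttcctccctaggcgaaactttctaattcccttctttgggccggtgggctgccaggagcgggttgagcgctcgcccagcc

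These are matches of letters only, and a window without one says nothing on the binding of a TEAD factor there.

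The partners of these proteins were read from 3 lists. Postn and Cdh1, in the list of ligands, are also markers of the gate, for fibroblasts and for epithelial cells. Of the basement membrane and hemidesmosome partners, 11 of 16 tested were higher and 3 lower in LATS1/2 KO luminal ER- cells, 87.5% beside 64.8% of all genes. Col4a2, a chain of the main basement membrane collagen, stood at 1.18 and 1.25 in WT and 32.6 and 31.8 in LATS1/2 KO (4.73), and the linker Nid1 (log2 fold change 5.03, at 1.79 times the UMIs expected from free RNA) and the anchoring fibril collagen Col7a1 (3.60) were the other highest. Col4a5 (-1.15), Col4a6 (-1.07) and the hemidesmosome plakin Dst (-0.45) were the lower ones. In ER+ cells 7 of 15 were higher and 1 lower (53.3% beside 25.8%), led by Col4a2 (5.61, at 0.98 times the expected free RNA), Nid1 (3.53) and Col7a1 (2.87), with Dst lower (-0.67). In basal cells 8 of 15 were higher and 4 lower (80.0% beside 33.3%). Bcam, a receptor of the laminin alpha 5 chain, rose by 1.05, the plakin Plec by 1.00 and Agrn by 0.83, while Col4a6 (-2.52), Col4a5 (-1.57) and Dst (-1.10) fell. Dst was thus lower in each epithelial lineage while Itgb4, its partner in hemidesmosomes, was higher.

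Of the integrin adhesion machinery, 10 of 18 were higher and 1 lower in luminal ER- cells, 61.1% and so no larger a share than the 64.8% of all genes. They were 6 of 17 higher and 1 lower in ER+ cells (41.2% beside 25.8%) and 5 of 18 higher and 7 lower in basal cells (66.7% beside 33.3%). In ER- cells the actin linker Actn1 stood at 84.5 and 98.0 in WT and 376 and 353 in LATS1/2 KO (2.00) and the focal adhesion protein Zyx at 66.8 and 73.8 in WT and 268 and 254 in LATS1/2 KO (1.89), followed by Fermt3 (1.71). Bcar1 (0.67) and Ptk2, the focal adhesion kinase (0.29), had the smallest rises, and Tns3 fell (-0.60). In basal cells Zyx (1.44), Tns3 (1.01) and Actn4 (0.69) were the highest, and Tln2 (-1.77), Lims2 (-1.76) and Tns2 (-1.42) the lowest. Lims2 was higher in WT basal than in WT luminal ER- cells (6.01), as were Itga1, Itga9 and Lama1. In EYFP-positive cells 10 of 18 were higher than in EYFP = 0 cells and 1 was lower (61.1% beside 44.0%), with Actn1 at 0.71, Zyx at 0.66 and Tln2 at -0.64 on the log2 scale. In fibroblasts none of 16 passed, beside 5.73% of all genes, and in endothelial cells 1 of 17, Actn1 (1.07), beside 10.9%.

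Of the integrin ligands other than laminins, 6 of 11 were higher and 3 lower in ER- cells (81.8% beside 64.8% of all genes), all 9 of 11 that passed were higher in ER+ cells (81.8% beside 25.8%) and all 7 of 10 in basal cells (70.0% beside 33.3%). Fibronectin, Fn1, the ligand of alpha 5 beta 1, stood at 1.22 and 1.10 in WT and 132 and 85.0 in LATS1/2 KO in ER- cells (6.54). Postn (6.20), also a marker of fibroblasts, and Fbln5 (5.94) followed, with Postn at 1.97 times the expected free RNA. Mfge8, a milk fat globule ligand of the alpha v integrins, fell from 2899 and 3415 to 739 and 803 (-2.03), and the leukocyte integrin ligands Icam1 (-2.11) and Vcam1 (-1.21) fell too. In basal cells Tnc, the ligand of alpha 9 beta 1, stood at 0 in WT and at 228 and 143 in LATS1/2 KO, at least 35.7-fold higher, while its receptor subunit Itga9 was lower. Spp1 (6.23) and Fbln5 (3.92) were the next highest there. In EYFP-positive against EYFP = 0 cells Fn1 (0.85), Thbs1 (0.48) and Tnc (0.47) were higher and Spp1 (-1.72), Mfge8 (-1.16) and Postn (-0.51) the lowest. In fibroblasts Tnc (4.59) and Postn (2.46) passed, but cells were put in this class partly by Postn. Of the basement membrane partners Col7a1 (4.87), Col4a2 (2.29) and Col4a1 (1.34) were highest there and Col4a4 (-3.94) and Nid2 (-3.21) lowest. Endothelial cells had Col4a2 (2.82), Col4a1 (2.26) and Nid1 (2.02) highest and Ntn4 (-2.94), Bcam (-1.79) and Plec (-0.70) lowest. The collagen IV chains Col4a1 and Col4a2 thus rose in fibroblasts and in endothelial cells. Of the other ligands, Postn and Madcam1 stood at 0 in WT endothelial cells and were at least 7.99-fold and 1.37-fold higher in LATS1/2 KO, Thbs1 (4.23) and Spp1 (3.86, from 0 and 1 UMIs in WT and at 1.58 times the UMIs expected from free RNA in LATS1/2 KO) passed as higher, and Fn1 (-2.06) and Mfge8 (-1.20) fell.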

How the data were processed

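Cells of mammary glands were measured by single-cell RNA sequencing in 2 WT and 2 LATS1/2 KO mice. The authors deposited UMI counts per gene and cell for each library, not normalized, made with Cell Ranger on mm10 with an EYFP sequence added; the submitters' processing notes name version 3.1.0 and the file header version 6.1.2. No columns of per-sample values were left unused (0).

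Barcodes with over 500 genes and under 20% mitochondrial UMIs were kept, 18200 of 20324, and 2124 were removed. No doublet caller was run. Each cell was put in a lineage by the mean log level of marker genes, and cells that passed the limits of more than 1 lineage, 36 and 23 in WT and 299 and 246 in LATS1/2 KO, were left out. Of the cells gated in the lineages tested, 93.39 to 100% lay in a cluster of the same name. Counts were summed per library and lineage, giving 48449 to 29315286 UMIs per sum, of which free RNA was expected to make up 1.4 to 20.1%. Lineages with at least 20 cells in each library were tested. Interaction terms, lineages of WT and EYFP classes were fitted with the mouse as a block, and the other comparisons without one.

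Sums were compared with edgeR 4.0.16 (TMM, its filter on low counts, quasi-likelihood F test, two-sided) in R 4.3.3, with Benjamini-Hochberg adjustment over all genes tested and a threshold of 0.05. The standard error is the absolute log2 fold change divided by the root of F. Alternatives were DESeq2 1.42.0, other size factors, no filter, a replicate block, each library left out, other gates and thinned counts. Cells were read with scanpy 1.11.5 in Python 3.11.15. The scripts were tested on simulated data.

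The members, the partner lists, the markers and the tests were chosen with earlier results of these data known, and the gate limits and the limits on complexes after the distributions had been seen. All members past the threshold, other than 1 that is not reported here, were named in the comparisons of lineages and groups, with library values for up to 12 with the largest change and for Itgb1, Lamb1, Lamc1, Lama3, Lamb3, Itga6 and Itgb4; of each other list up to 3 genes at each end of the range of called log2 fold changes were considered.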

Additional observations from a re-analysis of the deposited data

Results flagged for a closer look

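The effect of LATS1/2 KO on 13 members differed between luminal ER+ and luminal ER- cells by the interaction term of edgeR, and on 12 between basal and luminal ER- cells. Values are log2 differences of the effect, positive where it was higher than in ER- cells. The share of cells with EYFP UMIs differed between these lineages, as given above, and its part was not tested. In ER+ cells Itgb3 (6.39), Itga9 (4.39), Itga8 (3.14), Itga2 (3.02), Itgb8 (1.61), Lama3 (1.32) and Itgav (0.69) had the higher effect. The lower effects were those of Itga5 (-3.19), Itga3 (-1.63), Lama5 (-1.55), Itgb4 (-0.95), Itgb5 (-0.75) and Itgb1 (-0.48). Itga9 rests on 0 and 1 UMIs in WT and 3 and 1 in LATS1/2 KO in ER+ cells. Itga8 had 8 and 2 UMIs there in WT, beside 4.84 and 4.04 expected from free RNA. In LATS1/2 KO Itga8 had 8 and 0, beside 2.08 and 1.18. Itgb8 had 34 and 13 in WT, beside 16.14 and 15.22, and 8 and 6 in LATS1/2 KO, beside 8.64 and 3.06. Without the mouse as a block Itga8, Itgb1, Itgb5 and Itgb8 did not pass.

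In basal cells Itgb3 (3.11), Itga2 (2.12), Itgb8 (1.28) and Itgav (0.83) had a higher effect than in ER- cells. Lower were Itga1 (-4.23), Itga7 (-3.42), Lamb1 (-3.04), Itga3 (-2.13), Lamc1 (-1.55), Lamb3 (-1.09) and Lamb2 (-0.89). The 5 laminins among the 12 members were all lower, and the fifth, Lamc3 (-12.73), had 2 and 4 UMIs in WT and 0 in LATS1/2 KO in basal cells against 0 in WT and 3 and 7 in LATS1/2 KO in ER- cells, so its value depends on the prior count and is no bound. Without the mouse as a block Itga2 and Lamb2 did not pass.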

How the results depend on the processing

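Depth limits the small classes, since WT fibroblast and endothelial sums rest on 23 to 54 cells. In fibroblasts, where 2 members passed, 7 did with no filter on low counts, 1 with DESeq2, 1 with a stricter gate, 1 with free RNA subtracted, 0 with thinned sums and 0 to 5 with 1 library left out. In endothelial cells, where 5 passed, 0 did with no filter (edgeR called no gene, with 1576 genes at an unadjusted p under 0.05), 2 with DESeq2, 1 with classes from clusters, 3 with a stricter gate, 1 with thinned sums and 0 to 1 with 1 library left out. In lymphocytes, where 1 passed, 2 did with no filter, 0 with DESeq2, 0 with free RNA subtracted, 0 with thinned sums and 1 to 3 with 1 library left out. The causes were not tested.

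With 1 library left out, 20 to 24 members passed in luminal ER- cells, 6 to 14 in ER+ cells (6 without LATS1/2 KO replicate 1) and 3 to 13 in basal cells (7 without WT replicate 1, 3 without WT replicate 2). The ranges were 18 to 19 for EYFP = 0 and 20 to 23 for EYFP-positive cells against WT. Itga6 in EYFP-positive cells turned to 0.0699 (log2 fold change) with luminal ER- cells alone. EYFP-positive against EYFP = 0 cells gave 9 calls with cells thinned to 2000 UMIs. Each library was left out in turn for no interaction and for no test of WT lineages or of the EYFP classes within mice.

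Same-numbered mice of WT and LATS1/2 KO share only a number, and their deviations correlated at 0.022 to 0.067. With the replicate block 7 members passed in fibroblasts. It weakened 2 of 98 single calls. For EYFP-positive against EYFP = 0 cells, where the block is the mouse, 5 members passed with no replicate block, and 9 and 10 did for the interactions. Of single calls, other size factors changed none of 188. No filter left 179 and weakened 9. DESeq2, which was not run for WT lineages or interactions, left 99 and weakened 12. Settings chosen after seeing the data changed 2 calls (luminal ER- cells with ER- markers only) and none of 38 (cells passing the luminal and basal limits counted as luminal).

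Over all genes, calls in EYFP-positive against EYFP = 0 cells fell from 5712 to 2034 with DESeq2, 1057 with no replicate block and 1377 with thinned cells. In basal cells 2962 became 1367 with DESeq2, 725 without WT replicate 1 and 473 without WT replicate 2, and in ER+ cells 3091 became 1964 with DESeq2, 1197 without LATS1/2 KO replicate 1, 1704 without LATS1/2 KO replicate 2 and 1682 with thinned sums.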
